A study of Rattus norvegicus with 26 samples.

Results

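The 9 iron and heme handling genes Hmox1, Ftl1, Fth1, Slc40a1, Tfrc, Tf, Cp, Cd163 and Slc11a1 were followed in the injured rat spinal cord. They were picked by name from the joint table of read counts, which lists 32883 genes, and 8 of the 9 had enough reads to be tested. The data came from 5-mm segments of thoracic cord centred on the lesion, from wild-type adult female Sprague-Dawley rats labelled as postnatal day 70 in every group, in 26 poly(A) RNA-seq libraries of 8 groups. Intact was the comparable segment of intact or sham rats (n = 4). For sub-SCI (n = 3), the cord had been clamped at T10 with an aneurysm clip of 60 g for 1 min, 7 days before collection. From that time point, rats received an intrathecal dose of mesenchymal stem cells from human umbilical cord (hUC-MSCs, in the +MSC groups) or of the vehicle PBS (+PBS), and were collected 1, 2 or 4 weeks after the transplantation (wpt). The groups were +PBS-1w (n = 3), +PBS-2w (n = 2), +PBS-4w (n = 4), +MSC-1w (n = 3), +MSC-2w (n = 3) and +MSC-4w (n = 4). The study's methods give the rats daily cyclosporin A, an immune suppressant, and name no group without it. Reads that matched the human genome were removed before counting, so that the values stand for rat transcripts.

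Blood that leaks into an injured cord releases hemoglobin. CD163 is the scavenger receptor through which macrophages take up hemoglobin bound to haptoglobin, and heme oxygenase 1 (Hmox1) opens the heme ring and frees its iron. The iron is then stored in ferritin, a shell of light (Ftl1) and heavy (Fth1) chains, or leaves the cell through ferroportin (Slc40a1), after which ceruloplasmin (Cp) oxidizes it so that transferrin (Tf) can carry it. Cells take iron-loaded transferrin up through the transferrin receptor (Tfrc), whose mRNA is stabilized when iron is scarce, and Slc11a1 (NRAMP1) pumps metal out of the phagosome of macrophages. In the cord, oligodendrocytes are a known source of transferrin, and astrocytes of ceruloplasmin.

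Total counts ran from 19496602 to 43468509 per library. Markers of neurons summed to 8156 to 9959 CPM (counts scaled to the size of the library) in Intact and those of oligodendrocytes to 51173 to 57984 CPM, and every marker row of the neuron, oligodendrocyte and astrocyte lists had reads in every group. Levels are CPM on library sizes scaled by TMM, which leaves genes with the most extreme ratios and levels out of the scaling factor. A gene was called when the absolute log2 fold change was above 1 and the adjusted p was under 0.01, the thresholds of the study, in edgeR's quasi-likelihood test over 17990 genes with all 26 libraries in the fit. All adjusted p-values are from this test with Benjamini-Hochberg adjustment unless another tool is named. Nothing in the labels says more of the replicates than their numbers, although the study's methods call them biological, so the p-values measure the spread between these samples. Comparisons that share the Intact, sub-SCI or +PBS libraries are not independent of each other.

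The 250 bases before the start site are shown for Tfrc and Cp, since Tfrc was called lower and Cp higher than in Intact in +PBS-4w. They were taken from the RefSeq promoter table of build GRCr8, which held 5 of the 9 genes, and not from the Rnor6 build to which the reads were aligned. Capitals mark ACGTG in Tfrc, the core of the hypoxia response element, and TATAAA, the TATA box, in Cp, where the capitals also take in the overlapping match on the other strand.
Tfrc (chr11:81690319-81690568, minus strand): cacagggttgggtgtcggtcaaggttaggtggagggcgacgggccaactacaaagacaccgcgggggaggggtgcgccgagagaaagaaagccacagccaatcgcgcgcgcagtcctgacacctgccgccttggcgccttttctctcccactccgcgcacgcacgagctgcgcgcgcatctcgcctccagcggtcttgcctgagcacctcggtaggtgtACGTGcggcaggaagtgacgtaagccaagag
Cp (chr2:104368420-104368669, plus strand): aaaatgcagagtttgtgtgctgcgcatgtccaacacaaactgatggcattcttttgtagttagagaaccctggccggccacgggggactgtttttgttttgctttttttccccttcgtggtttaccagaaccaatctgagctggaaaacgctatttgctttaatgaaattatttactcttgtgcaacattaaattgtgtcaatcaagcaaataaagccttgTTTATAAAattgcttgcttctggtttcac
The Tfrc window held ACGTG once, at position -31 from the start on the gene's own strand, and 16.6% of the 33469 windows of the table held it on either strand. TATAAA stood in the Cp window at -27 on the gene's own strand and at -29 on the other, the matches overlapping, and 12.9% of all windows held it. The Tf window held TATAAA too, at -52 on the gene's own strand, while the Slc40a1, Tfrc and Cd163 windows did not. Neither the Cp nor the Slc40a1, Tf or Cd163 window held ACGTG. The binding sequence of AP-1, TGACTCA, was in 4.05% of all windows and in none of these 5, and the same held for GAGGAA, the core of the PU.1 site, at 23.3%. A match describes the letters of the window and is not a site shown to be used.

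Hmox1 (ENSRNOG00000014117) had the largest log2 fold change of the 8 tested genes in sub-SCI against Intact, and the largest decrease from sub-SCI to +PBS-4w. Its levels in Intact were 15.1, 13.6, 14.8 and 19.4 CPM. In sub-SCI they were 522, 534 and 743 CPM, far above the Intact range. Hmox1 was 38.0-fold higher in sub-SCI (log2 fold change 5.25, SE 0.28, adjusted p = 6.41e-12). In the PBS-treated cords, the levels were 285, 143 and 163 CPM at 1 wpt, 104 and 66.3 at 2 wpt, then 88.9, 57.5, 94.8 and 80.0 at 4 wpt, so that every one of these libraries lay below all sub-SCI libraries and above all Intact libraries. The fold over Intact was 12.5 in +PBS-1w, 5.40 in +PBS-2w and 5.09 in +PBS-4w, each called. Against sub-SCI, Hmox1 was 7.47-fold lower in +PBS-4w (log2 fold change -2.90, SE 0.25, adjusted p = 4.82e-07). It was 3.05-fold lower in +PBS-1w (log2 fold change -1.61, SE 0.27, adjusted p = 0.00584), a call that was lost without sub-SCI replicate 3, at -1.42 (adjusted p = 0.0402), without +PBS-1w replicate 2, at -1.42 (adjusted p = 0.0370), and without +PBS-1w replicate 3, at -1.49 (adjusted p = 0.0120). Over all alternatives this adjusted p ran from 4.73e-06 to 0.170. The order of the group means was sub-SCI, +PBS-1w, +MSC-1w, +PBS-2w, +PBS-4w, +MSC-4w, +MSC-2w and Intact, from 599.8 to 15.8 CPM. From +MSC-1w to +MSC-2w in this order, the range of each group overlapped that of the next.

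**Figure D1:**
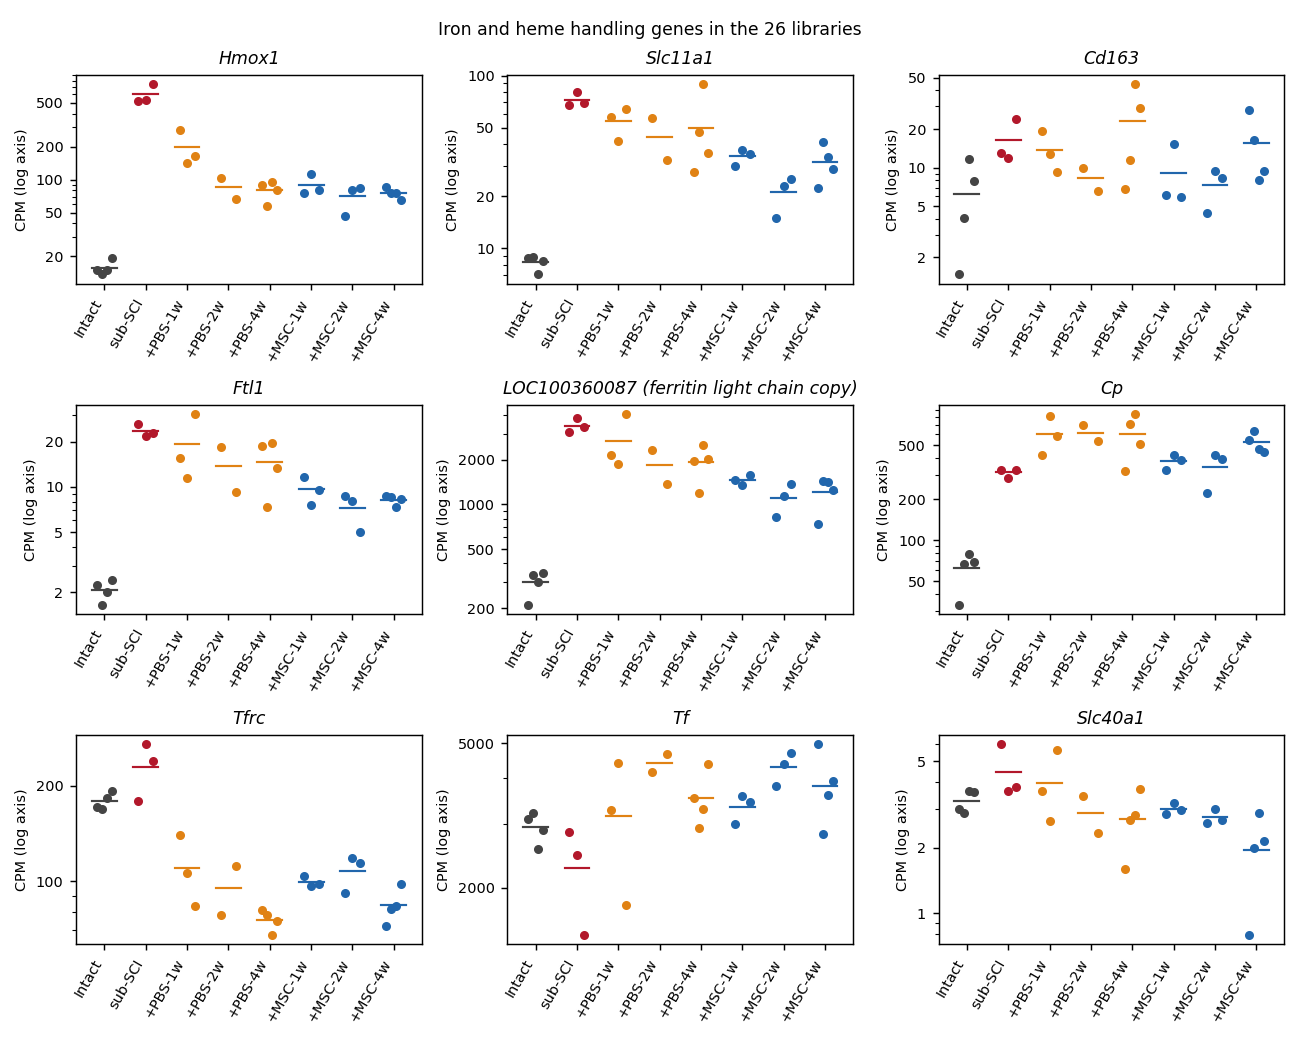
CPM of each gene (log axis) in the 26 libraries by group, 1 point per library, with the group mean as a bar; grey is Intact, red sub-SCI, orange +PBS and blue +MSC, and LOC100360087 is a ferritin light chain row that holds more reads than the Ftl1 row. Hmox1 falls from 522 to 743 CPM in sub-SCI to 57.5 to 94.8 in +PBS-4w, whereas Cp stays at 322 to 843 in +PBS-4w and Tfrc drops under its Intact range.

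The receptor for hemoglobin and haptoglobin was not called in any of the 13 comparisons. Cd163 (ENSRNOG00000010253) gave 1.47, 4.03, 11.7 and 7.83 CPM in Intact, the widest relative spread of the tested genes in that group. In sub-SCI it gave 13.0, 11.9 and 24.0 CPM, all above the Intact range, the lowest by a narrow margin (11.9 against 11.7 CPM). The difference missed the threshold (log2 fold change 1.37, SE 0.61, adjusted p = 0.0567). In +PBS-4w the libraries spanned 6.78 to 44.8 CPM and overlapped Intact (log2 fold change 1.88, SE 0.59, adjusted p = 0.0104). This difference was called by DESeq2 on all libraries, at 1.88 (adjusted p = 0.00202), and by edgeR without Intact replicate 3, at 2.36 (adjusted p = 0.00495), without +PBS-4w replicate 1, at 2.23 (adjusted p = 0.00218), or replicate 2, at 2.101 (adjusted p = 0.00739), and without +MSC-1w replicate 2 or +MSC-4w replicate 1, at 1.88 (adjusted p = 0.00930) and 1.88 (adjusted p = 0.00862). Its adjusted p ran from 0.00202 to 0.0631 over all alternatives. Group means ran from 6.25 ± 4.45 CPM (SD, n = 4) to 23.1 ± 17.4 CPM (SD, n = 4), and each group overlapped the next in this order.

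The phagosomal metal pump Slc11a1 (ENSRNOG00000014956) rose with injury and stayed up. It measured 8.84, 8.93, 7.08 and 8.47 CPM in Intact and 67.2, 80.0 and 69.3 CPM in sub-SCI, groups that did not overlap (8.66-fold higher; log2 fold change 3.11, SE 0.31, adjusted p = 2.43e-08). In +PBS-1w it measured 57.2, 42.0 and 63.7 CPM, in +PBS-2w 56.5 and 32.3 CPM and in +PBS-4w 27.7, 47.4, 89.3 and 35.6 CPM. Each of these 9 libraries exceeded all Intact libraries, and the gene was called higher at each week, with folds of 6.52, 5.33 and 6.0. The difference between +PBS-4w and sub-SCI was not called (-0.53 on the log2 scale, SE 0.29, adjusted p = 0.193).

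Both ferritin chains were hard to read from these counts. The Fth1 row (ENSRNOG00000022619) held 0 counts in all 26 libraries, which allows at most 0.0690 to 0.154 CPM at the depth of each library if 3 counts are taken as the limit, a figure for counting error only. The Ftl1 row (ENSRNOG00000031506) held 36 to 899 counts, whereas the row LOC100360087 (ENSRNOG00000020843), which RefSeq lists under the synonym Ftl1, held up to 105408. Of the reads in both rows, the Ftl1 row held 0.363 to 1.16%, with a median of 0.681%. RefSeq (build GRCr8) lists 22 other copies of Ftl1, of which 15 are pseudogenes, and 6 other copies of Fth1. Among the read counts, 2 rows carried the name of such a copy of Ftl1 and 0 that of a copy of Fth1. Of these rows only LOC100360087 was set beside the Ftl1 row, so the share does not cover all light chain copies. How reads matching several copies were counted is not given in the sources used here, so the split between copies, and the 0 for Fth1, are uncertain and say nothing on whether the cord made ferritin heavy chain. The effect of the human read filter on these conserved genes was not tested.

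Both of the ferritin light chain rows followed here, Ftl1 and LOC100360087, rose after injury. Ftl1 measured 2.24, 1.65, 1.99 and 2.39 CPM in Intact and 26.1, 21.7 and 22.9 CPM in sub-SCI, 11.4-fold higher (log2 fold change 3.51, SE 0.34, adjusted p = 1.96e-08). LOC100360087 measured 211, 332, 299.98 and 347 CPM in Intact and 3063, 3819 and 3327 CPM in sub-SCI, 11.4-fold higher (log2 fold change 3.52, SE 0.30, adjusted p = 3.25e-09). For both rows every injured library lay above every Intact library. In the PBS-treated cords Ftl1 measured 15.7, 11.4 and 30.5 CPM at 1 wpt, 18.5 and 9.31 at 2 wpt, then 18.7, 7.34, 19.5 and 13.4 at 4 wpt. It was called higher than in Intact at each week, with folds of 9.25, 6.70 and 7.12. The difference between +PBS-4w and sub-SCI was not called for Ftl1 (-0.68 on the log2 scale, SE 0.31, adjusted p = 0.118) or for LOC100360087 (-0.82 on the log2 scale, SE 0.28, adjusted p = 0.0382).

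Ceruloplasmin, the copper ferroxidase, rose and was called higher than in Intact in every injured group. Cp (ENSRNOG00000011913) measured 33.6, 66.4, 79.4 and 69.4 CPM in Intact and 329, 288 and 327 CPM in sub-SCI (5.06-fold higher; log2 fold change 2.34, SE 0.30, adjusted p = 1.03e-06). In +PBS-1w it measured 422, 814 and 586 CPM, in +PBS-2w 701 and 533 CPM and in +PBS-4w 322, 720.2, 843 and 509 CPM, all far above Intact. The folds over Intact were 9.76, 9.92 and 9.62. Against sub-SCI, all +PBS-1w libraries were higher, without a call (0.95 on the log2 scale, SE 0.32, adjusted p = 0.111). In +PBS-4w 1 of the 4 libraries lay within the sub-SCI range (0.93 on the log2 scale, SE 0.31, adjusted p = 0.0307). Without +PBS-4w replicate 1 that difference was called, at 1.12 (adjusted p = 0.00533), and its adjusted p ran from 0.00169 to 0.103 over all alternatives. The highest group mean of Cp was that of +PBS-2w, at 617 ± 119 CPM (SD, n = 2). Markers of astrocytes summed to 9893 to 11632 CPM in Intact, 5952 to 11491 CPM in sub-SCI and 14432 to 22480.2 CPM in +PBS-4w. Of these 8 markers, 0 were called higher and 5 lower in sub-SCI than in Intact, beside 16.6% and 17.5% of all genes. In +PBS-4w 1 was called higher and 1 lower, beside 13.3% and 10.7%. The median log2 fold change of the list was -1.15 in sub-SCI and -0.07 in +PBS-4w. The part of these markers in the level of Cp was not tested.

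The receptor for transferrin was called lower late after injury. Tfrc (ENSRNOG00000001766) measured 171, 169, 182 and 192 CPM in Intact and 179, 269.7 and 239 CPM in sub-SCI, with 1 sub-SCI library inside the Intact range (log2 fold change 0.36, SE 0.16, adjusted p = 0.0550). It then measured 139.6, 106 and 83.5 CPM in +PBS-1w, 78.3 and 112 CPM in +PBS-2w and 81.0, 78.4, 67.8 and 74.8 CPM in +PBS-4w. Every one of these libraries lay below the Intact range. In +PBS-4w Tfrc was called lower than in Intact, 2.37-fold (log2 fold change -1.24, SE 0.15, adjusted p = 8.56e-07). At 1 and 2 wpt the adjusted p passed and the fold did not, with log2 fold changes of -0.70 (SE 0.16, adjusted p = 0.00103) and -0.91 (SE 0.19, adjusted p = 8.11e-04). Without +PBS-2w replicate 2 the 2-week difference was called, at -1.18 (adjusted p = 9.91e-04), with adjusted p-values of 1.90e-07 to 0.0696 over all alternatives. Against sub-SCI, Tfrc was 3.04-fold lower in +PBS-4w (log2 fold change -1.60, SE 0.16, adjusted p = 1.43e-06) and 2.09-fold lower in +PBS-1w (log2 fold change -1.06, SE 0.17, adjusted p = 0.00473). The call in +PBS-1w was lost in 4 of the 26 fits with 1 library left out, namely sub-SCI replicate 2 or 3 and +PBS-1w replicate 2 or 3, at adjusted p-values of 0.0186, 0.0326, 0.0279 and 0.00983, in the last of which the log2 fold change was -0.90. Over all alternatives it ran from 5.49e-06 to 0.178.

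Transferrin itself was not called in any of the 13 comparisons. Tf (ENSRNOG00000030625) measured 3097, 3219, 2557 and 2882 CPM in Intact, 2851, 2456 and 1486 CPM in sub-SCI and 3541, 2918, 3287 and 4376 CPM in +PBS-4w, and Intact overlapped both other groups. The log2 fold change was -0.38 (SE 0.25, adjusted p = 0.190) in sub-SCI and 0.26 (SE 0.23, adjusted p = 0.343) in +PBS-4w. Per length, Tf stood at 898 CPM per kb of exon length in Intact, against 539 for LOC100360087, 37.3 for Tfrc, 16.4 for Cp, 10.1 for Hmox1, 2.82 for Slc11a1, 2.28 for the Ftl1 row, 1.47 for Cd163 and 1.02 for Slc40a1. In sub-SCI, LOC100360087 stood at 6165 CPM per kb, over Tf at 692, Hmox1 at 383, Cp at 83.0 and Tfrc at 47.9. Fth1 was not placed in this order, since its count of 0 is uncertain. Markers of oligodendrocytes summed to 17724 to 36004 CPM in sub-SCI, under the Intact range, and their part in the level of Tf was not tested.

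The iron exporter ferroportin had few reads. Slc40a1 (ENSRNOG00000003872) held 20 to 205 counts per library, and another row with the same symbol, ENSRNOG00000049995, held 1 count in all. It measured 3.0, 2.89, 3.65 and 3.61 CPM in Intact and 5.96, 3.66 and 3.80 CPM in sub-SCI, groups that did not overlap by a narrow margin (log2 fold change 0.44, SE 0.32, adjusted p = 0.244). It was not called in any of the 13 comparisons, and its lowest library, at 0.795 CPM, was replicate 1 of +MSC-4w.

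Ordered by group mean, Slc11a1 ran from sub-SCI over +PBS-1w, +PBS-4w, +PBS-2w, +MSC-1w, +MSC-4w and +MSC-2w to Intact, and only sub-SCI and Intact were apart from the group next to them. Ftl1 and LOC100360087 had the same order and only Intact stood apart. Cp ran from +PBS-2w over +PBS-1w, +PBS-4w, +MSC-4w, +MSC-1w, +MSC-2w and sub-SCI to Intact, with gaps between +MSC-4w and +MSC-1w and between sub-SCI and Intact. Tfrc ran from sub-SCI and Intact over +PBS-1w, +MSC-2w, +MSC-1w, +PBS-2w and +MSC-4w to +PBS-4w, with a single gap, between Intact and +PBS-1w. For Tf, Cd163 and Slc40a1 each group overlapped the next.

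Against the background of all genes, 4 of the 8 tested genes were called higher in sub-SCI than in Intact (Hmox1, Ftl1, Slc11a1 and Cp), where 16.6% of all genes tested were called higher, and 0 were called lower, where 17.5% of all genes were. The median log2 fold change of the 8 was 1.86, against -0.02 over all genes. The same 4 genes were called higher in +PBS-1w, +PBS-2w and +PBS-4w, beside backgrounds of 13.5%, 8.84% and 13.3%. Called lower were 0 of 8 in +PBS-1w and in +PBS-2w, beside 12.5% and 5.66%, and 1 of 8, Tfrc, in +PBS-4w, beside 10.7%. From sub-SCI to +PBS-1w, 2 of 8 were called lower, Hmox1 and Tfrc, where 0.106% of all genes were, and 0 of 8 were called higher, where 0.05% were. With edgeR on those 6 libraries alone neither was called, nor was any other gene, whereas DESeq2 on all libraries called 121 genes lower. From sub-SCI to +PBS-4w, again Hmox1 and Tfrc were called lower, beside 3.09%, and 0 higher, beside 4.28%.

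**Figure D2:**
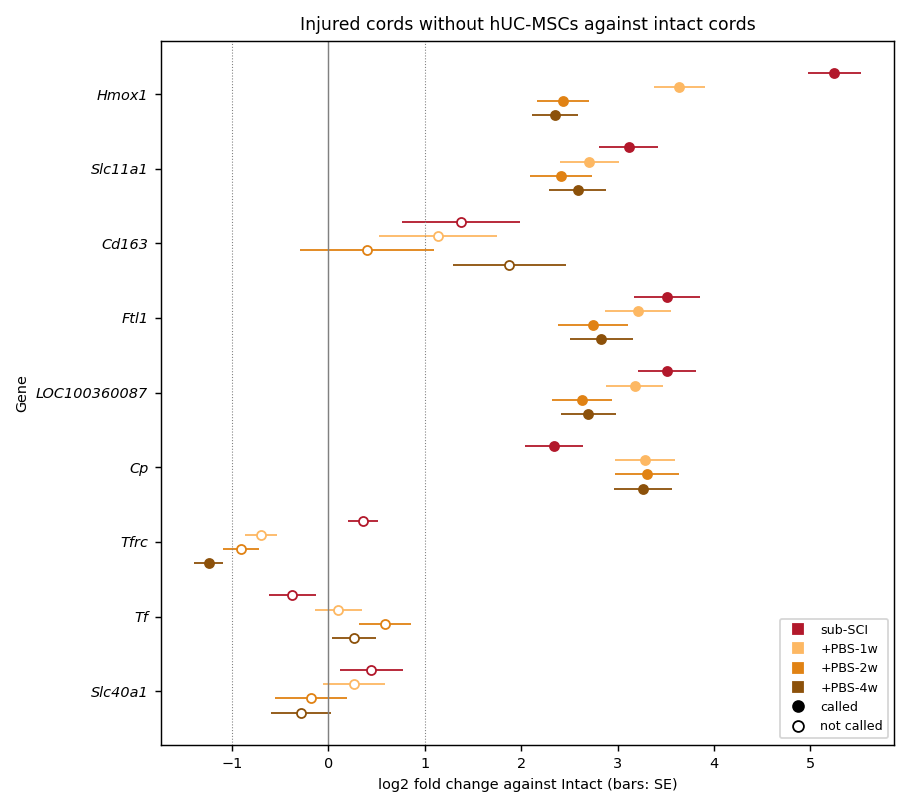
Log2 fold change against Intact (horizontal axis, bars are SE) of each gene in sub-SCI and in PBS-treated cords at 1, 2 and 4 wpt; filled points were called and dotted lines mark the fold threshold. Hmox1 goes from 5.25 in sub-SCI to 2.35 in +PBS-4w, Cp from 2.34 to 3.27, and Tfrc from 0.36 to -1.24.

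The 5-mm segments are mixtures, in which fewer cells of a type and less RNA per cell cannot be told apart. The 12 markers of phagocytic macrophages and microglia summed to 338 to 720.4 CPM in Intact and 12864 to 14329 CPM in sub-SCI, and all 12 were called higher. They summed to 7913 to 13064 CPM in +PBS-1w, 6636 to 11642 in +PBS-2w and 6625 to 11250.4 in +PBS-4w, and to 5783 to 6874, 3431 to 6366 and 5603 to 6907 CPM in +MSC-1w, +MSC-2w and +MSC-4w. None of the 12 was at 0 in any group. The 6 fibroblast markers summed to 41.4 to 879 CPM in Intact and 6529 to 13495 CPM in sub-SCI, and all 6 were called higher. They summed to 3209 to 7342 CPM in +PBS-1w, 1114 to 1650 in +PBS-2w and 922 to 3524 in +PBS-4w, and to 1539 to 2474, 257 to 641 and 409 to 1896 CPM in +MSC-1w, +MSC-2w and +MSC-4w, and none was at 0 in any group. The sums of both lists were higher in sub-SCI than in Intact, as were Slc11a1, Hmox1 and ferritin light chain. In +MSC-2w the fibroblast sum lay within the Intact range and the phagocyte sum above it. Hmox1, Slc11a1 and Ftl1 were called higher in +MSC-2w than in Intact. The part of both lists in the levels of these genes was not tested. Against sub-SCI, the median log2 fold change of the phagocyte list was -0.28 in +PBS-1w and -0.84 in +PBS-4w, and that of the fibroblast list -1.04 and -1.76. Their part in the lower Hmox1 and Tfrc was not tested either. Red cell markers (globins, Alas2 and Slc4a1) summed to 148 to 2210.1 CPM in Intact and 824 to 1009.6 CPM in sub-SCI, and 0 of the 8 rows tested were called in any of the 13 comparisons.

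**Figure D3:**
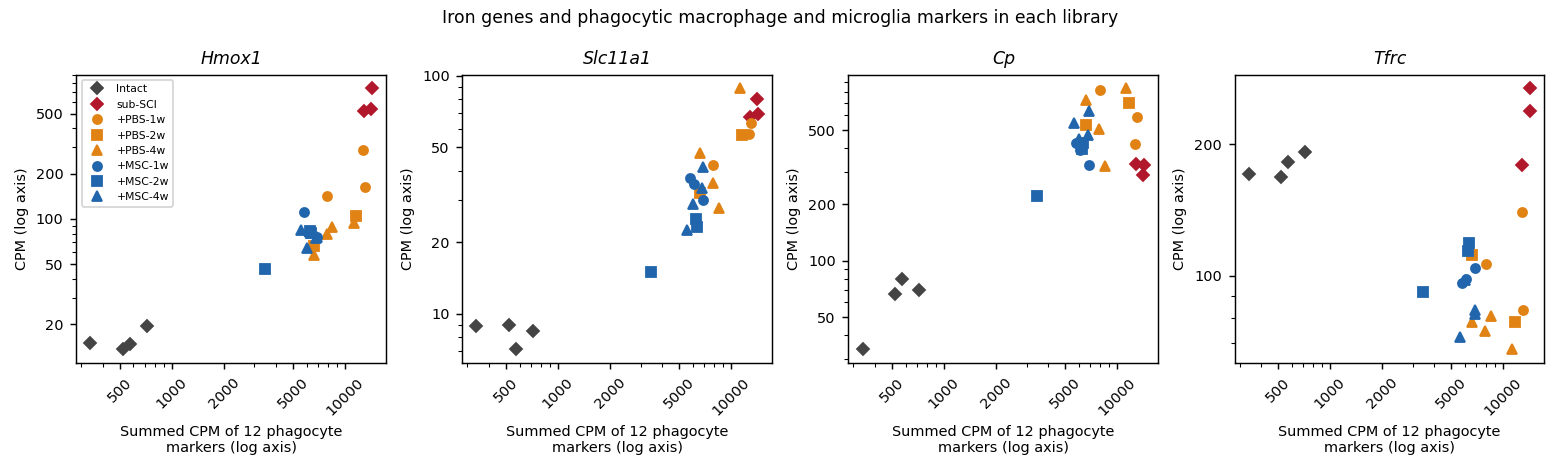
CPM of Hmox1, Slc11a1, Cp and Tfrc (vertical log axes) against the summed CPM of 12 phagocytic macrophage and microglia markers (horizontal log axes), 1 point per library; colour and shape give the group. The sub-SCI libraries lie at marker sums of 12864 to 14329 CPM, and of the +PBS-1w libraries, at 7913 to 13064 CPM, only 1 lies within that range.

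Treatment with hUC-MSCs was compared with PBS at the same week. At 1 wpt Hmox1 measured 76.0, 112 and 80.2 CPM with cells and 285, 143 and 163 CPM with PBS, groups that did not overlap. The fitted ratio of PBS to cells was 2.20, with an adjusted p above the threshold (log2 fold change -1.14, SE 0.26, adjusted p = 0.0677). DESeq2 called it, at -1.17 (adjusted p = 0.00380) on all libraries and -1.16 (adjusted p = 0.00524) on these 6 libraries alone, and its adjusted p ran from 0.00380 to 0.291 over all alternatives. At 2 wpt Hmox1 measured 46.5, 80.9 and 83.1 CPM with cells against 104 and 66.3 CPM, and at 4 wpt 84.9, 75.5, 74.9 and 64.6 CPM against 88.9, 57.5, 94.8 and 80.0 CPM. In both weeks the groups overlapped, with log2 fold changes of -0.28 (SE 0.29, adjusted p = 0.739) and -0.10 (SE 0.23, adjusted p = 0.834). Without the replicate 1 libraries the 2-week value turned to 0.30, and without +PBS-2w replicate 1 alone to 0.10. The edgeR test for a difference of the effect between weeks gave an adjusted p of 1 for Hmox1. It was among the 481 of 17990 genes with an unadjusted p under 0.05, of which 0 passed after adjustment.

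Slc11a1 had a lower group mean with cells at each week, without a call. It measured 30.1, 37.1 and 35.3 CPM at 1 wpt, 15.0, 23.1 and 25.1 at 2 wpt, then 22.5, 41.3, 33.8 and 28.9 at 4 wpt with cells, and did not overlap the PBS libraries at 1 and 2 wpt. Log2 fold changes were -0.67 (SE 0.31, adjusted p = 0.269), -1.08 (SE 0.35, adjusted p = 0.266) and -0.66 (SE 0.27, adjusted p = 0.154). Over the mean of the 3 weeks the adjusted p passed and the fold did not (log2 fold change -0.80, SE 0.18, adjusted p = 0.00425). Ftl1 measured 11.7, 7.54 and 9.61 CPM at 1 wpt, 8.73, 8.08 and 4.98 at 2 wpt, then 8.67, 8.61, 7.37 and 8.30 at 4 wpt with cells, and over the mean of the weeks its adjusted p passed and its fold of 1.89 did not (log2 fold change -0.92, SE 0.20, adjusted p = 0.00290). Leaving out +PBS-1w replicate 2 or +PBS-2w replicate 2 moved it past the threshold, to -1.01 (adjusted p = 0.00145) and -1.06 (adjusted p = 0.00142), and its adjusted p ran from 8.78e-05 to 0.0408 over all alternatives. LOC100360087 gave -0.76 (SE 0.18, adjusted p = 0.00488) over the mean of the weeks.

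Cp measured 327, 426 and 391 CPM at 1 wpt, 221, 426 and 396 at 2 wpt, then 548, 636, 468 and 446 at 4 wpt with cells, and the groups overlapped at 1 and 4 wpt. Over the mean of the weeks Cp gave -0.56 (SE 0.18, adjusted p = 0.0315) and Hmox1 -0.51 (SE 0.15, adjusted p = 0.0198) on the log2 scale, neither of them called. Tfrc measured 104, 96.3 and 98.1 CPM, 91.8, 119 and 114 CPM and 72.4, 81.9, 83.4 and 97.9 CPM at the 3 weeks with cells and overlapped the PBS libraries at each. Its mean difference was 0.06 (SE 0.10, adjusted p = 0.685), that of Tf 0.05 (SE 0.15, adjusted p = 0.838), that of Slc40a1 -0.31 (SE 0.20, adjusted p = 0.292) and that of Cd163 -0.45 (SE 0.38, adjusted p = 0.425). The SE of Cd163 was the widest of the 8.

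None of the 8 genes was called between +MSC and +PBS with edgeR at any week or over their mean. DESeq2 called 1, Hmox1 at 1 wpt, and 0 at 2 and 4 wpt and over the mean. Over all genes, DESeq2 on all libraries called 40, 21, 13 and 300 lower and 28, 3, 295 and 366 higher, in that order. DESeq2 on the 2 groups called 111, 336 and 14 lower and 226, 81 and 232 higher at 1, 2 and 4 wpt. At an unadjusted p under 0.05 in edgeR there were 4, 3, 2 and 4 of the 8 at these weeks and over the mean. With edgeR at 1 wpt, 0.0111% of all genes tested were called lower and 0.0% higher. At 2 wpt, 0.0% were called in either direction, and at 4 wpt 0.495% were called higher and 0.0% lower. Over the mean of the weeks 1.61% were called higher and 0.956% lower. Genes with an unadjusted p under 0.05 numbered 3219 at 1 wpt, 2219 at 2 wpt, 4048 at 4 wpt and 6505 over the mean. With an adjusted p under 0.05 and no fold threshold, 4 of the 8 were lower over the mean of the weeks (Ftl1, Slc11a1, Hmox1 and Cp), where 1966 of the 17990 genes were. Over that mean, 3 of the 12 phagocyte markers were called lower, and the list's median log2 fold change was -0.57. At 1 wpt the marker sums were 5783 to 6874 CPM with cells and 7913 to 13064 with PBS, which did not overlap. Those of fibroblasts, at 1539 to 2474 CPM with cells and 3209 to 7342 with PBS, did not overlap either, and their median log2 fold change was -1.16 at 1 wpt and -1.29 over the mean of the weeks. The part of both lists in the values of Hmox1, Slc11a1 and Ftl1 was not tested. The median over the 8 genes was -0.48 over the mean of the weeks, beside -0.02 over all genes.

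**Figure D4:**
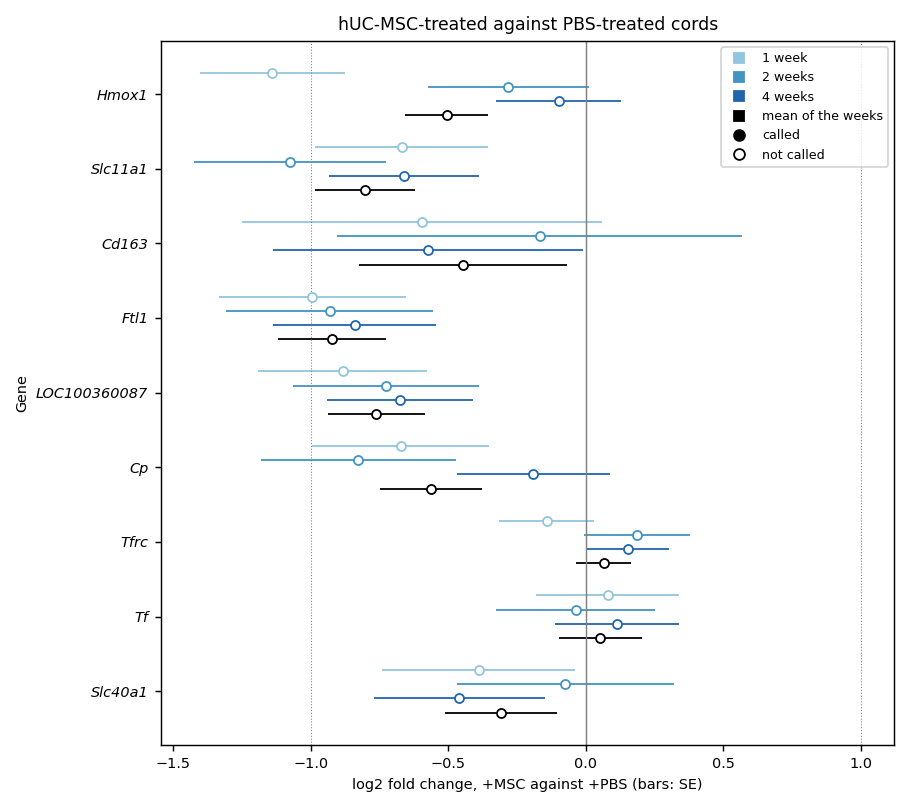
Log2 fold change of +MSC against +PBS (horizontal axis, bars are SE) for each gene at 1, 2 and 4 wpt and over the mean of the weeks; all points are open because none was called. All rows but Tfrc and Tf lie under 0 at every week, Hmox1 is at -1.14 at 1 wpt and -0.10 at 4 wpt, and over the mean of the weeks Tfrc is at 0.06 and Tf at 0.05.

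The treated cords still differed from intact ones. Hmox1, Ftl1, Slc11a1 and Cp were each called higher in +MSC-1w, +MSC-2w and +MSC-4w than in Intact, 4 of 8 each time, beside 7.87%, 5.6% and 7.25% of all genes. The Hmox1 folds were 5.67, 4.45 and 4.75, and those of Cp 6.13, 5.59 and 8.43. Slc11a1 in +MSC-2w (log2 fold change 1.34, SE 0.30, adjusted p = 0.00282) lost its call without Intact replicate 3, at an adjusted p of 0.0123, without +MSC-2w replicate 2, at 0.0161, and without +MSC-2w replicate 3, at 0.0219, with a range of 2.81e-09 to 0.0219 over all alternatives. Tfrc was called lower in +MSC-4w, 2.13-fold (log2 fold change -1.09, SE 0.15, adjusted p = 1.10e-05), 1 of 8 beside 1.53%. It was not called lower in +MSC-1w and +MSC-2w, 0 of 8 beside 2.63% and 0.461%. There the fold stayed under the threshold, at log2 fold changes of -0.84 (SE 0.16, adjusted p = 4.64e-04) and -0.72 (SE 0.16, adjusted p = 0.00277).

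Other genes of iron and heme handling were counted from 6 lists with 61 rows tested. In sub-SCI against Intact 10 were called higher and 3 lower, where 16.6% of all genes were called higher and 17.5% lower. Of 11 genes for heme scavenging, breakdown and transport, 3 rose and 1 fell. Those that rose were Blvrb, a biliverdin reductase that acts after Hmox1, at 1.11 (SE 0.19, adjusted p = 3.43e-05), the choline and heme transport family member Flvcr2 at 1.15 (SE 0.24, adjusted p = 3.44e-04), and haptoglobin (Hp) at 1.89 (SE 0.45, adjusted p = 0.00111), all on the log2 scale. The exporter Abcg2 fell by 1.35 on the log2 scale (SE 0.25, adjusted p = 7.29e-05). Haptoglobin ranged over 2.67 to 8.32 CPM in Intact and 13.3 to 21.6 CPM in sub-SCI. None of the 9 genes of heme synthesis, the 9 rows for iron chaperones, ferritin turnover and mitochondrial iron or the 10 genes of iron export and its regulation was called in that comparison.

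The list for uptake and reduction held the most calls, with 5 of 11 genes higher and 2 lower in sub-SCI, beside 16.6% and 17.5%. The metal importer Slc39a8 (ZIP8) rose to 34.8 to 48.3 CPM from 4.86 to 8.35 CPM (log2 fold change 2.63, SE 0.24, adjusted p = 8.85e-09). Of the STEAP metalloreductases, Steap1 rose (3.39 on the log2 scale, SE 0.48, adjusted p = 3.45e-06), as did Steap3, the endosomal ferrireductase that acts on transferrin-borne iron (1.53 on the log2 scale, SE 0.22, adjusted p = 4.27e-06), and Steap4, named after its values were seen, which measured 28.7 to 41.4 CPM in sub-SCI and 1.25 to 9.0 CPM in Intact (2.54 on the log2 scale, SE 0.51, adjusted p = 1.87e-04). Steap2 fell (-1.53 on the log2 scale, SE 0.19, adjusted p = 5.27e-07). Slc22a17, a receptor for lipocalin 2, fell as well (-1.38 on the log2 scale, SE 0.26, adjusted p = 9.58e-05). Of 11 genes of the NRF2 and BACH1 axis, which governs Hmox1 transcription, 2 were called higher and 0 lower. That share of higher calls is near the 16.6% over all genes, of which 17.5% were called lower. The 2 were Nfe2l2, which encodes NRF2, at 1.41 (SE 0.16, adjusted p = 2.10e-07), and its target Osgin1 at 1.67 (SE 0.32, adjusted p = 1.15e-04). The part of this axis in the level of Hmox1 was not tested.

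Over the 61 rows, 10 were called higher and 3 lower in +PBS-1w, 8 and 1 in +PBS-2w, and 11 and 2 in +PBS-4w, always against Intact, where 13.5% and 12.5%, 8.84% and 5.66%, and 13.3% and 10.7% of all genes were called. Against sub-SCI, 0 were called in +PBS-1w with edgeR, beside 9 with an unadjusted p under 0.05, where 3353 of 17990 genes had one. In +PBS-4w 1 of 61 was higher and 3 were lower, where 4.28% of all genes were called higher and 3.09% lower. The rows called there, named after their values were seen, were Abcg2 at 1.18 and, lower, Blvra at -1.06, Hp at -1.70 and Slc39a8 at -1.42 on the log2 scale. Between +MSC and +PBS, 0 of 61 were called with edgeR at 1, 2 and 4 wpt, beside 9, 6 and 15 with an unadjusted p under 0.05. Of all 17990 genes, 3219, 2219 and 4048 had such a p, in that order. Over the mean of the weeks 1 of 61 was called lower, beside 0.956% of all genes. It was Bmp6, a ligand that drives hepcidin transcription, at -1.28 (SE 0.30, adjusted p = 0.00526). Bmp6 ranged over 61.7 to 122, 69.6 to 91.2 and 33.6 to 221 CPM with PBS at 1, 2 and 4 wpt and over 50.1 to 63.2, 14.8 to 19.6 and 54.8 to 111 CPM with cells, beside 6.49 to 36.4 CPM in Intact. In the treated cords against Intact, 2, 1 and 3 of the 61 rows were called higher at 1, 2 and 4 wpt, smaller shares than the 7.87%, 5.6% and 7.25% over all genes, and 0 lower. Named after their values were seen, they were the ferrireductase Cybrd1 at each week (1.34, 1.5 and 1.94), Steap4 at 1 wpt (1.82), and Steap1 (1.71) and Lcn2 (2.90) at 4 wpt.

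**Figure D5:**
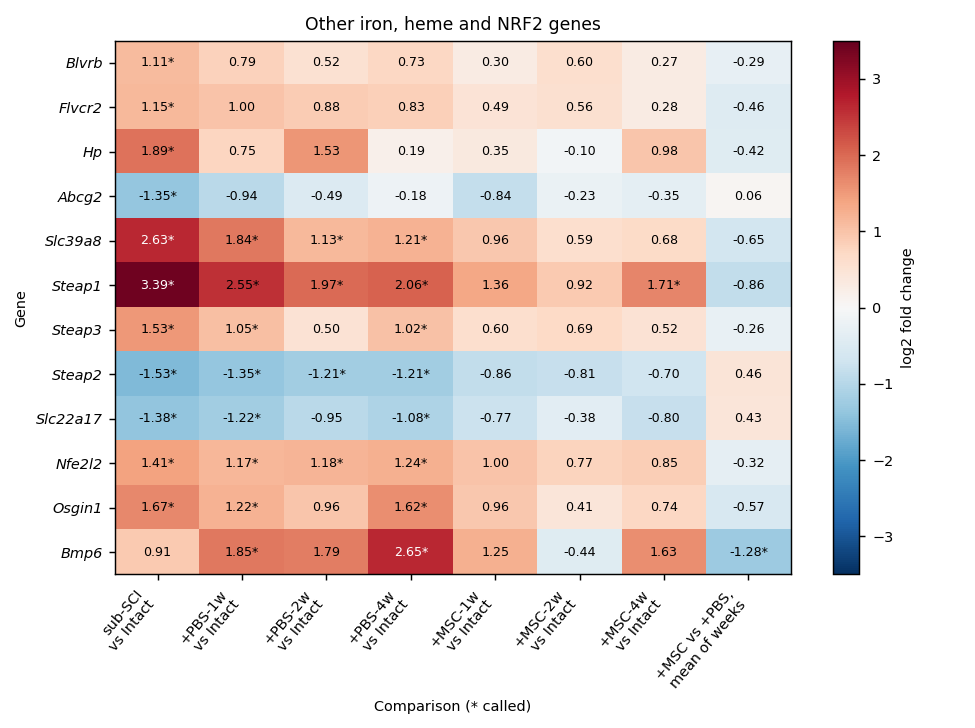
Log2 fold changes of 12 other iron, heme and NRF2 genes (rows) in 8 comparisons (columns); colour and printed value give the log2 fold change and an asterisk marks a call. Steap1 and Slc39a8 have the highest values in sub-SCI (3.39 and 2.63), and Bmp6 is the 1 gene called over the mean of the weeks between +MSC and +PBS (-1.28).

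For each gene the 3 genes with the most similar course over the 26 libraries were taken by Pearson correlation of log2 CPM, as a description, since the libraries share groups and depth. Hmox1 was closest to Tpm3 (0.976), Tacc3 (0.972) and Kpna2 (0.972), and Slc11a1 to Naglu (0.964), Gusb (0.964) and Asah1 (0.963). Naglu, Gusb and Asah1 encode lysosomal enzymes. Ftl1 was closest to LOC100362384 (0.973), Fam3c (0.966) and AABR07008505.1 (0.962), and Cp to Fcgr2b (0.959), Serping1 (0.959) and Cd109 (0.956), of which Fcgr2b encodes an inhibitory IgG receptor and Serping1 the C1 inhibitor. Tfrc was closest to Atg4c (0.862), Tmem8a (0.848) and Aaas (0.83), Tf to Slc25a34 (0.931), Slc15a2 (0.900) and Mlc1 (0.887), Cd163 to AABR07006278.1 (0.821), Dpt (0.815) and Nt5c2 (0.814) and Slc40a1 to Flii (0.828), Gramd4 (0.794) and Afap1l1 (0.792). The values were higher for Hmox1, Slc11a1, Ftl1 and Cp, the genes called in sub-SCI, than for the other 4. Large differences between groups enter both the calls and these correlations, so this order is not separate evidence on the genes.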

How the data were processed

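The deposited values were raw read counts per gene. Per the labels and the study's methods, the authors trimmed read pairs with Trim Galore 0.5.0, removed reads that HISAT2 2.1.0 mapped to the human genome (GRCh38), mapped the rest to rat (Rnor6), selected properly paired reads (SAMtools 1.9) and counted them by featureCounts 1.6.4. The annotation release, strand setting and treatment of reads with several matches are not given in the sources used here. Each library's own file equalled its column of the joint table in all 26 cases. Groups follow the labels, and the study's account of its clustering gives +MSC-2w the number of libraries they do, although the methods text names +MSC-2w as the smallest group.

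The counts were fitted with edgeR 4.0.16 (R 4.3.3; TMM, filterByExpr, glmQLFit and glmQLFTest, 8 group levels, no covariate). The study used DESeq2, which was run here as an alternative (version 1.42.0). CPM per kb used the deposited exon length. Alternatives covered other size factors, filters, models, libraries and thresholds, and Ftl1 summed with LOC100360087 was added after the data were seen. Genes named were the 9, up to 3 called genes per pathway list and direction in sub-SCI against Intact, pathway genes called between +MSC and +PBS, and the 3 most similar genes. Members, lists and tests were chosen with earlier results of these data known. Scripts were tested on simulated data.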

Additional observations from a re-analysis of the deposited data

How the results depend on the processing

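Deviations of same-numbered +MSC and +PBS libraries from their group means correlated at -0.08 to 0.23. Libraries with different numbers were not compared in this way, so these values cannot decide whether the replicate numbers pair the libraries. With the replicate block every count of members called stayed as given (4 higher in each comparison with Intact), and over all genes 4 were called lower at 1 wpt between +MSC and +PBS in place of 2, and 4 higher in +PBS-1w against sub-SCI in place of 9. Under the block the sign turned for Slc40a1 in +PBS-2w against Intact, to 0.029, and for Tf at 2 wpt between +MSC and +PBS, to 0.067, neither called.

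Of 958 counts of members called under alternatives, 928 equalled the count reported, 22 were above it and 8 below. With an adjusted p under 0.05 and no fold threshold, 1 of the 8 was lower than Intact in +PBS-1w, +PBS-2w, +MSC-1w and +MSC-2w. Beside it, 4753, 3067, 2666 and 1159 of the 17990 genes were lower, in that order. At this threshold 4 of the 8 were lower over the mean of the weeks between +MSC and +PBS, beside 1966 genes. In +PBS-4w against sub-SCI 1 was higher, beside 2418 genes. DESeq2 on all libraries and on the 2 groups called 1 lower at 1 wpt between +MSC and +PBS, beside 40 and 111 over all genes. In +PBS-1w against sub-SCI, edgeR on the 2 groups called 0 lower (Hmox1 -1.59, adjusted p = 0.170; Tfrc -1.05, adjusted p = 0.178). Without the replicate 1 libraries 1 was higher in +PBS-4w against sub-SCI, namely Cp at 1.13 (adjusted p = 0.00169). With 1 library left out, the counts ran from 0 to 1 lower in +PBS-2w against Intact and over the mean of the weeks, 0 to 2 lower in +PBS-1w against sub-SCI, 0 to 1 higher in +PBS-4w against sub-SCI, 3 to 4 higher in +MSC-2w against Intact (Slc11a1) and 4 to 5 higher in +PBS-4w against Intact (Cd163). Cd163 in +PBS-4w against Intact was also called with at least 10 counts in every library, at 1.92 (adjusted p = 0.00814), and without the replicate 1 libraries, at 1.87 (adjusted p = 0.00821), and its adjusted p ran from 0.00202 to 0.0631 over all alternatives. Ftl1 summed with LOC100360087 was chosen after seeing the data.

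Sign changes of single genes all concerned differences that were not called. Without the replicate 1 libraries they were Cd163 in +PBS-2w against Intact (-0.22), Tfrc at 1 wpt (0.028), Slc40a1, Cd163 and Hmox1 at 2 wpt (0.26, 0.41 and 0.30) and Tf at 4 wpt (-0.029) between +MSC and +PBS, and Slc40a1 in +PBS-1w against sub-SCI (0.12). With 1 library left out, the genes whose sign turned had these ranges of log2 fold change. For +PBS-1w against Intact, Slc40a1 ran from -0.066 to 0.48 and Tf from -0.21 to 0.39. For +PBS-2w against Intact, Slc40a1 ran from -0.46 to 0.076. For +MSC-1w against +PBS-1w, Tfrc ran from -0.31 to 0.068 and Tf from -0.20 to 0.40. For +MSC-2w against +PBS-2w, Tfrc ran from -0.038 to 0.46, Slc40a1 from -0.33 to 0.24, Cd163 from -0.43 to 0.17, Hmox1 from -0.57 to 0.10 and Tf from -0.11 to 0.047. For +MSC-4w against +PBS-4w, Cp ran from -0.42 to 0.020 and Tf from -0.036 to 0.24. For +MSC against +PBS over the mean of the weeks, Tfrc ran from -0.033 to 0.16 and Tf from -0.042 to 0.16. For +MSC-1w against Intact, Cd163 ran from -0.062 to 1.02. For +MSC-2w against Intact, Cd163 ran from -0.052 to 0.71. For +PBS-1w against sub-SCI, Slc40a1 ran from -0.51 to 0.085 and Cd163 from -0.56 to 0.15. For +PBS-4w against sub-SCI, Cd163 ran from -0.039 to 0.89. The cause of these changes was not tested.

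Counts over all genes moved more than those of the members. Those that differed by more than 1.5 times were 12 under DESeq2 on all libraries (0 to 474 became 3 to 770), 12 under DESeq2 on the 2 groups (0 to 1019 became 14 to 1637), 9 under edgeR on the 2 groups (2 to 770 became 0 to 837), 8 without the replicate 1 libraries (0 to 1591 became 6 to 928) and 24 with no fold threshold (0 to 3151 became 7 to 5560). A minimum of 10 counts changed 2 (9 and 290 became 14 and 180), no filter 1 (9 became 4) and a term for the replicate 1 libraries 2 (9 and 19 became 19 and 33). Low counts limit Slc40a1, Cd163 and the Ftl1 row, and 2 libraries in +PBS-2w limit that week.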
